A study of Mus musculus with 36 samples.

Results

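The chromatin around 6 homeobox genes of the distal limb, Msx1, Msx2, Dlx3, Dlx4, Dlx5 and Dlx6, was described from 12 lists of open regions of the mouse hand and foot skeleton. Peaks were taken when they overlapped a gene body of one of these genes extended by 200 kb on both sides, and overlapping peaks of different lists (1 bp or more) were joined into 1 region. This gave 82 regions of 65543 in the series, namely 24 around Msx1, 17 around Msx2, 27 around the neighbours Dlx3 and Dlx4, and 14 around the neighbours Dlx5 and Dlx6. Where a list had a peak in a region, the region counts as called there.

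The assay was ATAC-seq, which sequences the fragments that a transposase cuts out of accessible DNA. The cells were chondrocytes from E15.5 embryos of the FVB/NJ strain, without any genetic change or treatment named in the labels. The 36 libraries formed 12 groups of 3, and every library pooled tissue of 3 to 5 embryos of a single litter (6 to 10 limbs). The groups were the phalanges of the foot and of the hand and the metapodials of the foot (metatarsals) and of the hand (metacarpals), each from digits I, III and V. Per the labels, the phalanges of digit I were the proximal and distal ones, and those of digits III and V also included the intermediate one. The dissected pieces were pooled whole, so a change in the mixture of cells and a change in the chromatin of one cell type cannot be told apart.

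Each group had 1 peak list made from its pooled libraries, so a single list has no error bar, and errors below are the spread between lists. They held from 36194 peaks (metacarpal I) to 53276 peaks (metacarpal III), and they ended at different significance. The weakest peak kept had a −log10 p-value between 23.0 and 49.6, depending on the list. A region missing from a list may therefore have fallen below the threshold of that list, and the counts of called regions per gene window were repeated with the first 36194 lines of each list, which are its most significant peaks. The read depth per library was unknown.

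Msx1 and Msx2 encode homeodomain proteins that act mainly as repressors and are classic targets of BMP signalling in the limb bud, the nail region and the teeth. The Dlx genes are the vertebrate relatives of the fly gene Distal-less and lie in neighbouring pairs that can share regulatory elements. In mice, joint loss of Dlx5 and Dlx6 gives split feet, and both genes also act in the maturation of cartilage and bone.

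The promoters of Msx1 and Msx2 are shown because all 12 lists had a peak over the whole of both windows, which makes them the fixed points of the maps. Of the 6 genes, 2 had an entry in the RefSeq promoter table of GRCm38.p6, whose coordinates are those of mm10. Each sequence is 300 bases, from 250 before to 50 after the annotated start, on the minus strand, with homeodomain core words in capitals where they occurred. The first core word is TAATTA, which reads the same on the other strand. The second is CAATTA, searched on both strands.
Msx1 promoter (chr5:37824536-37824835): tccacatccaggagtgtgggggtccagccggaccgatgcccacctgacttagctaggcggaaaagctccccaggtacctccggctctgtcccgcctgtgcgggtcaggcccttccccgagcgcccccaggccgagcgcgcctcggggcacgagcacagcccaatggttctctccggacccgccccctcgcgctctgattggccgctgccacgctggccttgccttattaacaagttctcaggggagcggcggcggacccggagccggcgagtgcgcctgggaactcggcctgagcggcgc
Msx2 promoter (chr13:53472731-53473030): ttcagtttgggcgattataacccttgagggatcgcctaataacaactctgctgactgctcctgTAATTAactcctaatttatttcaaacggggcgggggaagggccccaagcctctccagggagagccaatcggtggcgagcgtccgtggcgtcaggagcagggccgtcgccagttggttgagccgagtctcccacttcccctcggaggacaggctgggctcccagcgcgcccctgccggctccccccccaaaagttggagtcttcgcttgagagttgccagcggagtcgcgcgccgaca

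The Msx2 window held TAATTA once, a word present on either strand in 5.29% of the 32851 promoters of the table, and the Msx1 window held neither word. Either word was present in 12.4% of all promoters. Of the other words searched on both strands, TTTATT occurred once in the Msx2 window and in 19.6% of all promoters. The posterior Hox word TTTACG, present in 3.03% of all promoters, occurred in neither window. The same held for both words bound by Smad proteins, GGCGCC in 11.9% of promoters and, with a share of 21.0%, the word CAGACA. It also held for ACAAT, a core word of Sox proteins, present in 31.0%. The bases of the Msx1 window were 70.0% G or C and those of the Msx2 window 61.0%, beside a median of 52.7% over all promoters. The nearest peak summit lay 12 to 92 bp from the Msx1 start and 16 to 94 bp from the Msx2 start across the 12 lists.

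Dlx6os1, a long non-coding RNA on the minus strand at the Dlx6 end of the Dlx5 and Dlx6 pair, had 2 annotated starts in the table. Of these 2 starts, the window shown is the one that lay inside the open region over Dlx6, and it held both core words. The words were not found in every promoter inside such regions. The promoter of Dlx6os2 lay in the same region, held neither word and was covered whole by a peak in 9 lists. The promoter of Dlx4os, in the region over Dlx4, also held neither word and was covered whole in 8 lists.
Dlx6os1 promoter (chr6:6861634-6861933): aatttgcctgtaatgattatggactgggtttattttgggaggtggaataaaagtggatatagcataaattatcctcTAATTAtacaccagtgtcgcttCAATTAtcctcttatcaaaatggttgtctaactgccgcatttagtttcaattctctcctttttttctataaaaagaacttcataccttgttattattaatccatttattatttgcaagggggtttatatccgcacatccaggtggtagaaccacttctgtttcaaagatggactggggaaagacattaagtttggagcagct

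A peak covered this whole window in 4 of 12 lists, and the nearest summit lay 600 to 2090 bp from this start. No list had a peak over the other start of Dlx6os1 (chr6:6869484-6869783), where the nearest summit was 4696 to 4828 bp away. The summits near Dlx6 and Dlx5 were therefore not at either start of this RNA.

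All 6 genes lay under regions that were open in all 12 lists. Msx1 (gene ID 17701, chr5:37820491-37824585 in mm10) lay in the widest of them, a region of 16.59 kb. Peaks covered 14.14, 13.7 and 13.44 kb of it in the foot phalanges of digits I, III and V and 15.95, 13.72 and 12.71 kb in the hand phalanges. They covered 13.71, 11.98 and 12.79 kb in the metatarsals and 12.86, 12.79 and 7.46 kb in the metacarpals of the same digits. The phalanx lists averaged 13.94 ± 1.09 kb and the metapodial lists 11.93 ± 2.26 kb (SD, n = 6 lists each). That difference had an exact permutation p = 0.0312 and an adjusted p = 0.494 over the 23353 regions called in all 12 lists. The groups overlapped, and the lowest value was that of metacarpal V. The strongest peak over Msx1 ranked within the top 9.61% to 20.1% of its list by the authors' significance.

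Msx2 (gene ID 17702, chr13:53466881-53472780) lay under a region of 6.53 kb. Peaks covered 1.82, 3.39 and 6.32 kb of it (lowest, median and highest) in the phalanges and 1.36, 1.62 and 3.96 kb in the metapodials, with an exact permutation p of 0.0938. The neighbouring region began 0.1 kb beyond the 3′ end of Msx2. Peaks covered 4.79, 4.93 and 5.1 kb of it (lowest, median and highest) in the phalanges, against 1.35, 1.79 and 5.19 kb in the metapodials. Among the metapodial lists metatarsal I had 5.19 kb, and the other metapodial lists lay between 1.35 and 2.07 kb, below every phalanx list. The exact permutation p was 0.0625 for this region.

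Dlx3 (gene ID 13393, chr11:95120117-95125296), a gene of the epidermis, hair, teeth and bone, lay under a region of 7.66 kb, covered over 5.84 ± 0.49 kb in the phalanges and 4.35 ± 1.14 kb in the metapodials (exact permutation p = 0.0312, adjusted p = 0.494). A second region over the end of Dlx3 was called in all 6 phalanx lists and in 4 metapodial lists, not in metatarsal V or metacarpal V. Dlx4 (gene ID 13394, chr11:95140447-95146294) lay under a region covered over 5.01 ± 1.72 kb in the phalanges and 3.0 ± 1.46 kb in the metapodials (exact permutation p = 0.125). The strongest Dlx3 and Dlx4 peaks ranked lower in their lists than those of Msx1, within the top 26.8% to 71.7% for Dlx3 and 29.8% to 62.7% for Dlx4.

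Dlx5 (gene ID 13395, chr6:6877801-6882068) and Dlx6 (gene ID 13396, chr6:6863334-6867970) each lay under a region that did not pass the test. The region over Dlx5 was covered over 6.74 ± 0.29 kb in the phalanges and 6.38 ± 0.5 kb in the metapodials, with an exact permutation p of 0.188. The region over Dlx6 was covered over 6.13 ± 0.25 kb in the phalanges and 5.43 ± 1.28 kb in the metapodials, with an exact permutation p of 0.219. Metacarpal V had the lowest value at both genes, 5.61 kb at Dlx5 and 2.98 kb at Dlx6. The strongest peaks ranked within the top 9.9% to 19.5% of their lists for Dlx6 and 16.4% to 26.5% for Dlx5.

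**Figure D1:**
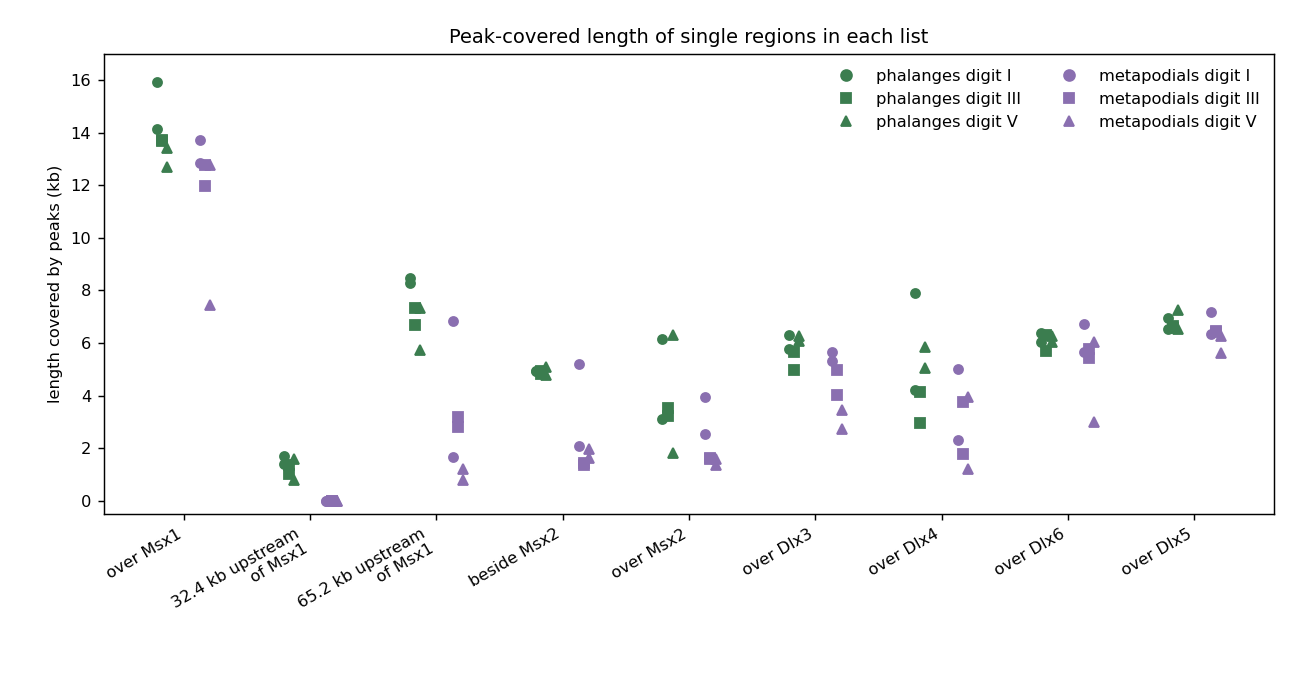
Length covered by peaks (kb, vertical axis) in 9 single regions over or near the 6 genes, with 1 point per list, phalanges left of metapodials in each pair and the digit given by the marker. The region 32.4 kb upstream of Msx1 is at 0 in every metapodial list, and the region beside Msx2 lies near 4.93 kb in the phalanges and below 2.1 kb in all metapodial lists but metatarsal I.

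The first comparison set the 6 phalanx lists against the 6 metapodial lists. Around Msx1, 16, 18 and 16 regions were called in the foot phalanges of digits I, III and V and 16, 15 and 14 in the hand phalanges. In the metatarsals of the same digits 14, 10 and 10 regions were called, and in the metacarpals 10, 13 and 10. The phalanx lists were higher in 6 of 6 pairs of the same limb and digit, and the groups met at 14 regions. The means were 15.83 ± 1.33 in the phalanges and 11.17 ± 1.83 in the metapodials, a difference of 4.67 regions with an exact permutation p of 0.0312 over 64 labellings, two-sided, the smallest this design can give.

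Around Dlx3, 24, 23 and 25 regions were called in the foot phalanges of digits I, III and V and 22 in each list of hand phalanges. The metatarsals had 23, 20 and 19 and the metacarpals 20, 21 and 18. The difference was 2.83 regions (23.0 ± 1.26 in the phalanges, 20.17 ± 1.72 in the metapodials), higher in 6 of 6 pairs, with an exact permutation p of 0.0312. Dlx4, which lies 15.2 kb from Dlx3 and shared 24 regions with it, had 1 region fewer in every list and the same difference, so the pair is a single observation.

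Around Msx2 the median list had 12 regions in the phalanges (range 10 to 15) and 8.5 in the metapodials (range 7 to 13). The difference was 2.83 regions, with 5 of 6 pairs higher and an exact permutation p of 0.0625. In the pair that went the other way, the foot phalanges of digit I had 12 regions and metatarsal I had 13. Dlx5 and Dlx6, which share 13 regions and lie 9.8 kb apart, had differences of 0.5 (exact permutation p = 0.781) and 1.0 (exact permutation p = 0.562). For Dlx5 the phalanges ranged from 7 to 9 regions and the metapodials from 5 to 12, a range that contains every phalanx list.

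Of the 6 windows, those of Msx1, Dlx3 and Dlx4 were thus higher in the phalanges by the exact permutation test without adjustment, and none was lower. The same test called 2.41% of all 20711 gene windows of the series higher and 2.41% lower. A difference as high as that of Msx1 was found in 0.435% of all windows, and one as high as that of Dlx3 in 2.25%. After Benjamini-Hochberg adjustment over all windows the p of Msx1 and of Dlx3 was 0.487, and no window of the series was below that value.

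**Figure D2:**
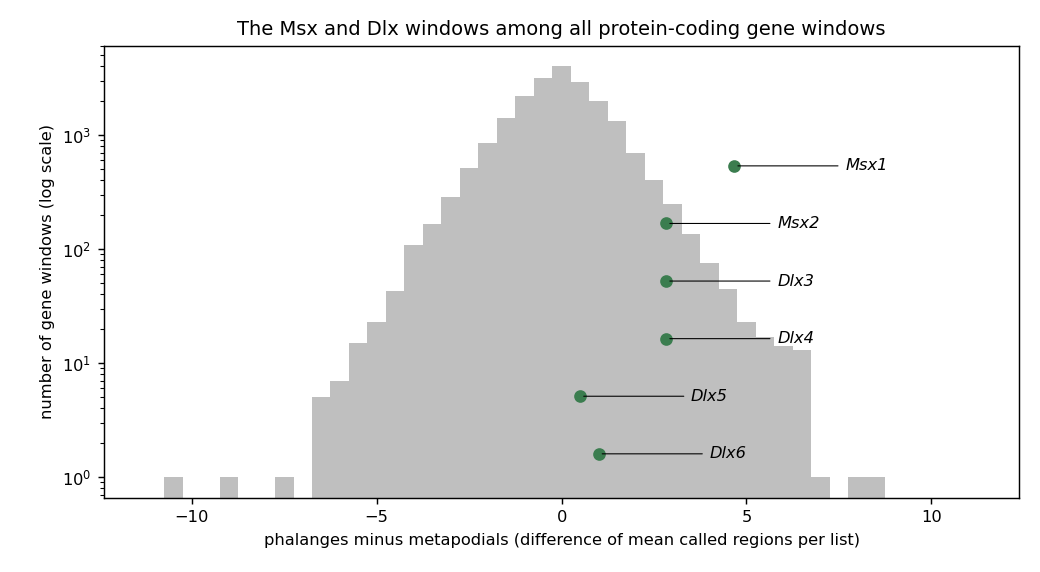
Number of protein-coding gene windows (vertical axis, log scale) by the difference of mean called regions per list, phalanges minus metapodials (horizontal axis), with the 6 genes marked at their own differences; the height of a mark carries no value. Msx1 lies at 4.67, Msx2, Dlx3 and Dlx4 at 2.83, and Dlx5 and Dlx6 at 0.5 and 1.0 near the middle of all windows.

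With lists of equal length Msx1 had 14, 14 and 14 regions in the foot phalanges and 15, 13 and 13 in the hand phalanges. The metatarsals had 12, 9 and 10 and the metacarpals 10, 9 and 10. The groups no longer overlapped, a pattern seen in the same direction in 0.524% of windows, and the exact permutation p was again 0.0312. Msx2 then had 10.83 ± 1.47 regions in the phalanges and 7.17 ± 1.33 in the metapodials, higher in 6 of 6 pairs, and passed the test with p = 0.0312 (exact permutation). Dlx3 had 22.17 ± 2.64 in the phalanges and 18.0 ± 2.61 in the metapodials, also with an exact permutation p of 0.0312, and Dlx4 1 region fewer in each. The equal-length background was 5.58% of windows called higher and 3.47% lower, and the adjusted p was 0.302 for these 4 genes. Dlx5 and Dlx6 did not pass (exact permutation p = 0.375 and 0.281). Peaks were merged again at equal length, so a region of all peaks could be split. In the Dlx3 window the region chr11:94953509-94959005 was split, and foot phalanges I had 25 regions, against 24 with all peaks. The part of this in the larger Dlx3 difference was not tested.

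**Figure D3:**
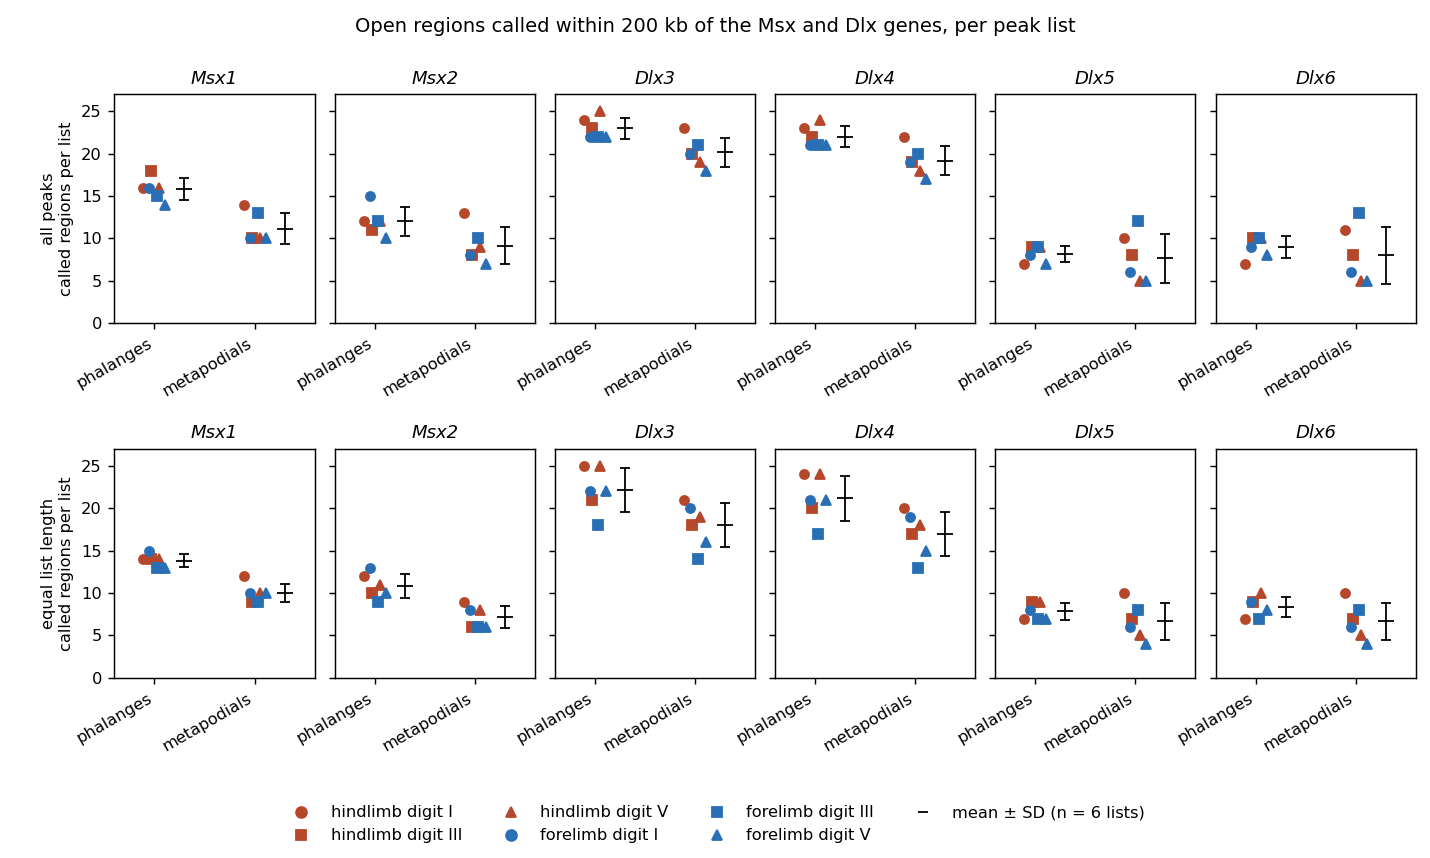
Called regions per list (vertical axis) within 200 kb of each gene, phalanges left of metapodials, for all peaks (top row) and for lists of equal length (bottom row); points are single lists, bars the mean ± SD of 6 lists. Msx1 phalanges lie at 14 to 18 against 10 to 14 in the metapodials with all peaks, and at 13 to 15 against 9 to 12 at equal length, while the Dlx5 and Dlx6 groups overlap widely.

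The Msx1 and Dlx3 differences varied with the distance taken, and the Dlx3 call was lost in 7 of 10 alternatives other than leaving out a list. The 10 include equal length both by first lines and by significance. These kept the same peaks, because every list was ordered by significance. With 100 kb in place of 200 kb the Msx1 difference was 1.83 regions and the Dlx3 difference 2.17 (exact permutation p = 0.0625 for both), and with 50 kb they were 1.33 and 0. In the more significant 50% of each list the Msx1 difference was -0.67, in the other direction, with an exact permutation p of 0.656.

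The Msx1 regions were not spread evenly around the gene. Msx1 is on the minus strand, so higher coordinates are upstream. On the upstream side 13 regions were found, and 7 to 9 of them were called per phalanx list (median 7.5) against 1 to 4 per metapodial list (median 2.0). Every phalanx list was above every metapodial list there, as in 0.132% of the single 200 kb flanks, on either side, of all genes. On the downstream side, which also holds Stk32b and Cytl1, 10 regions were found, with 6 to 9 called per phalanx list (median 7.0) and 7 to 9 per metapodial list (median 7.5). At equal length the upstream counts were 5 to 7 in the phalanges and 1 to 3 in the metapodials, a separation seen in 0.407% of single flanks. The sides were set apart after the values had been seen, so no test was made.

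One region near the 6 genes was called in all 6 phalanx lists and in none of the 6 metapodial lists. It lay upstream of Msx1 (chr5:37857006-37859038), 32.4 kb from the gene. No annotated protein-coding gene lay over it, and among those genes Msx1 had the nearest end. Of all regions in the series 0.119% had this pattern. Peaks covered 1.69, 1.36 and 1.57 kb of it in the foot phalanges of digits I, III and V and 1.41, 1.01 and 0.77 kb in the hand phalanges, and 0 kb in every metapodial list. The stretch shared by all 6 phalanx peaks was 693 bp (chr5:37857749-37858441). The exact permutation p was 0.0312 and the p adjusted over all regions was 1.0.

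The peaks in this region stood between the top 50.7% and the top 93.7% of their lists by significance. The fold enrichment, which is the authors' own value, ran from 5.82 in the hand phalanges of digit III to 10.46 in the hand phalanges of digit I. The weakest stood at line 41520 of 44289 in its list, so at equal length the region was called in 5 of 6 phalanx lists. Its pattern then no longer passed the test (exact permutation p = 0.0625).

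A larger region 65.2 kb upstream of Msx1 (chr5:37889767-37898634) was open in all 12 lists but wider in the phalanges. Peaks covered 8.47, 7.35 and 7.35 kb in the foot phalanges of digits I, III and V and 8.28, 6.68 and 5.74 kb in the hand phalanges. They covered 6.82, 2.79 and 1.19 kb in the metatarsals and 1.66, 3.18 and 0.78 kb in the metacarpals. Metatarsal I lay within the phalanx range, and the other 5 metapodial lists lay below it. The difference was 4.58 kb (7.31 ± 1.02 kb in the phalanges, 2.74 ± 2.2 kb in the metapodials), with an exact permutation p of 0.0312 and an adjusted p of 0.494.

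Further upstream of Msx1, 5 more regions were called in 2 or more phalanx lists and in no metapodial list. They were chr5:37916277-37919782 in 4 phalanx lists, chr5:37941455-37944138 in 5, chr5:38001359-38004782 in 4, chr5:38022900-38024317 in 5 and chr5:37938781-37940950 in 2. The first of these was called in the 3 foot lists and in the hand phalanges of digit I. A region at chr5:37966524-37970100 was called in all 6 phalanx lists and in metatarsal I and metacarpal III. From 114.2 kb on, the nearest end of a protein-coding gene was that of Stx18 and not of Msx1. Which gene these regions serve was not tested. On the downstream side a region at chr5:37768523-37771257 was called in the 3 lists of foot phalanges only.

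**Figure D4:**
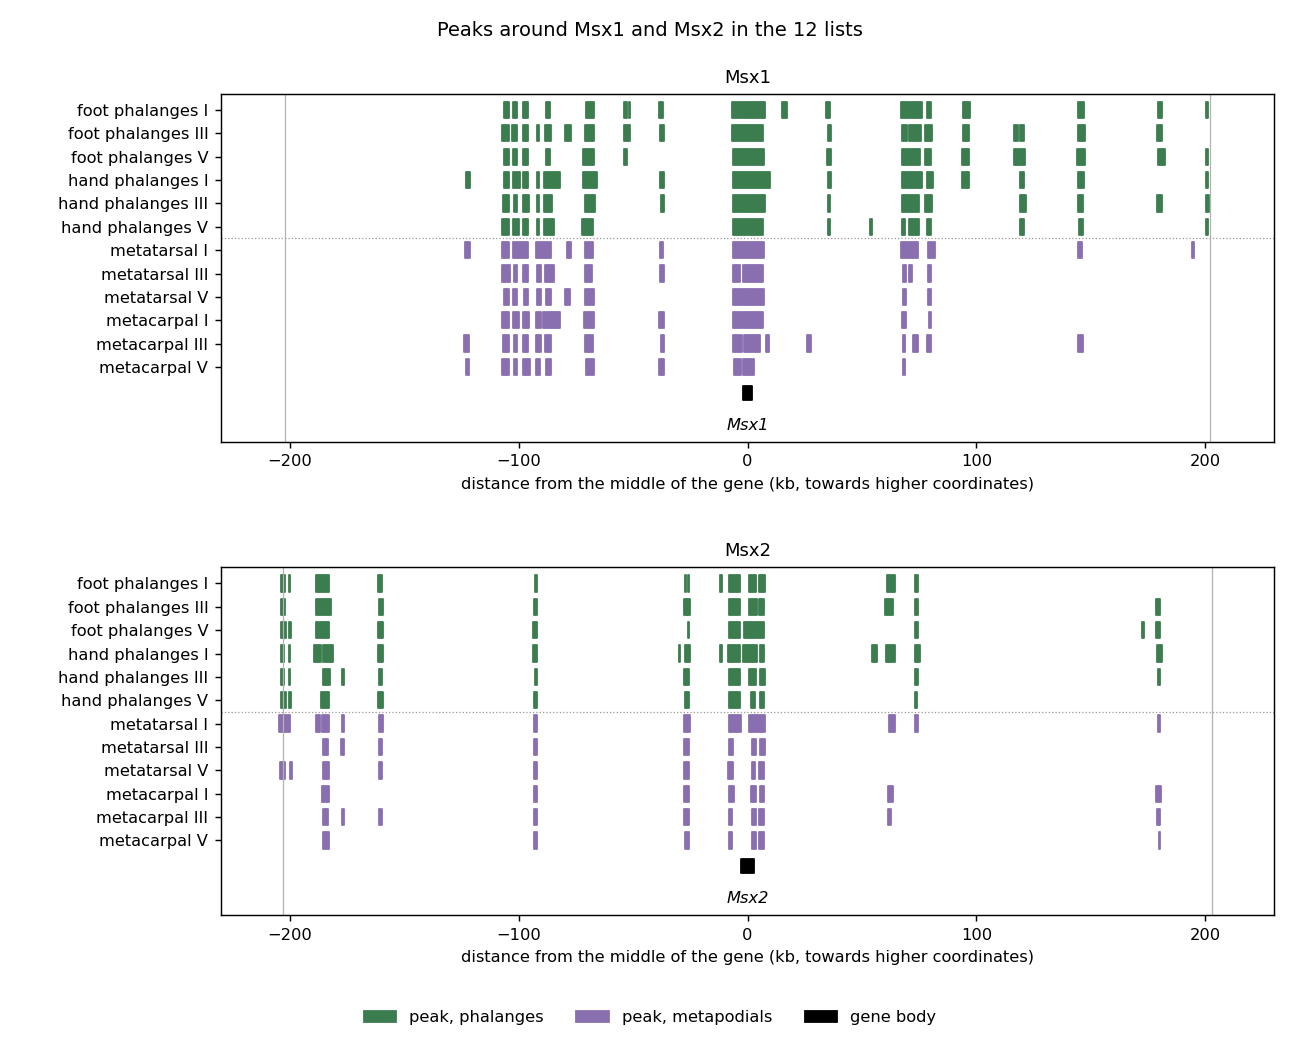
Peaks of each list (bars, 1 row per list, phalanges above metapodials) by distance in kb from the middle of Msx1 (top) and Msx2 (bottom), higher coordinates to the right, with grey lines at 200 kb from the gene ends. To the right of Msx1, which is upstream, 7 to 9 regions were called per phalanx list and 1 to 4 per metapodial list, and to the left the rows look alike.

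Around Msx2 no region separated the groups. The closest to that pattern lay upstream of the gene (chr13:53542900-53545197, 70.1 kb away), called in all 6 phalanx lists and in metatarsal I. On the other side, over the neighbouring gene Ror2, which encodes a WNT5A receptor needed for digit growth, a region called in all lists was wider in the phalanges. Peaks covered 5.09 ± 1.6 kb of it in the phalanges and 2.94 ± 1.0 kb in the metapodials (exact permutation p = 0.0312, adjusted p = 0.494). Its centre was 1.5 kb from an end of Ror2, and it lay 178.2 kb from Msx2.

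Metatarsal I resembled the phalanges at several of these places, at the widened regions upstream of Msx1 and beside Msx2 and at the Msx2 region just named. It had the most regions of any metapodial list around Msx1, Msx2 and Dlx3, at 14, 13 and 23. Its list held 46582 peaks, and at equal length it had 12, 9 and 21 regions around these genes. Leaving out the highest metapodial list must raise the difference. Without metatarsal I the mean difference was 5.23 regions for Msx1, 3.6 for Msx2 and 3.4 for Dlx3. Leaving out each list in turn gave 4.233 to 5.233 for Msx1, 2.233 to 3.6 for Msx2 and 2.4 to 3.4 for Dlx3.

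Around Dlx3 and Dlx4, 2 regions were called in 5 phalanx lists and in no metapodial list. One lay 35.1 kb beyond Dlx4 (chr11:95181372-95187337) and was missing from the hand phalanges of digit I, and the other lay 76.2 kb beyond it (chr11:95222474-95225855) and was missing from the hand phalanges of digit V. Another region, 13.2 kb beyond Dlx4 (chr11:95159473-95162299), went the other way, called in no phalanx list and in 4 metapodial lists. The windows of Dlx3 and Dlx4 held 10 other protein-coding genes, among them Col1a1, which encodes the main collagen of bone, and Itga3. Of the 27 regions there 16 were open in all 12 lists (59.3%), the highest share of the 4 loci.

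Around Dlx5 and Dlx6 the 14 regions lay within 72.8 kb of the genes apart from 2 at lower coordinates. Of the 10 regions not called in all lists, 5 were called in more phalanx lists and 4 in more metapodial lists. The closest such region, 6.0 kb from Dlx6 (chr6:6853894-6857289), was called in all 6 phalanx lists and in metatarsal I, metacarpal I and metacarpal III. Metacarpal III, the longest list, alone had the regions at 155.9 and 20.5 kb from Dlx6 and at 46.5 kb from Dlx5.

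**Figure D5:**
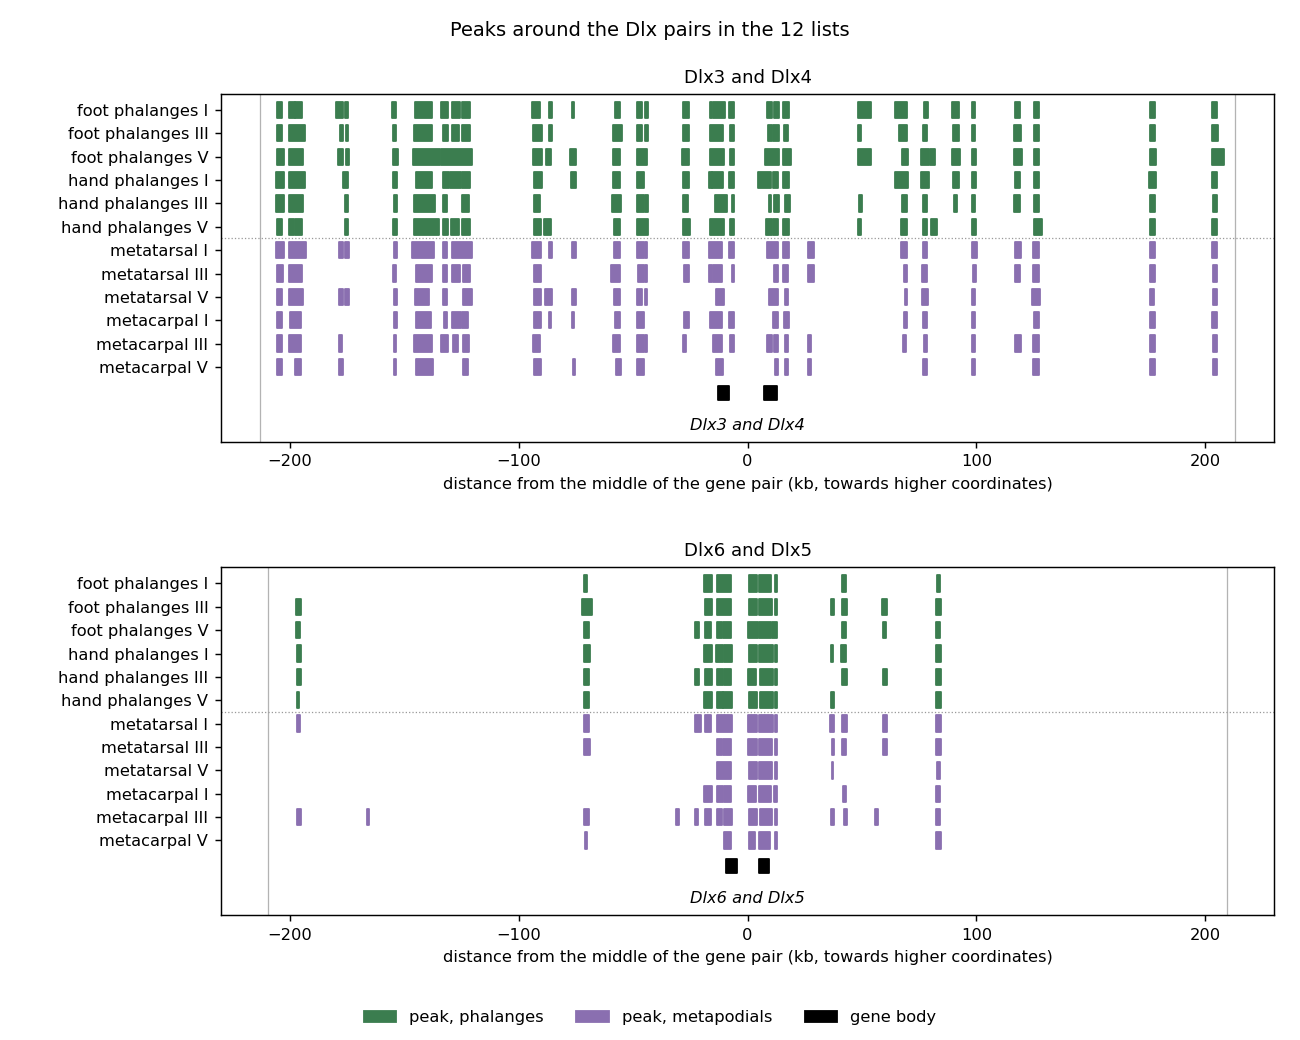
Peaks of each list (bars, 1 row per list, phalanges above metapodials) by distance in kb from the middle of the Dlx3 and Dlx4 pair (top) and of the Dlx6 and Dlx5 pair (bottom), higher coordinates to the right. The peaks over the 4 gene bodies recur in every row, and to the right of Dlx4 there are 9 to 11 regions per phalanx list against 7 to 9 per metapodial list.

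Over all 4 loci, 33 of the 82 regions were called in all 12 lists (40.2%, against 35.6% in the series). Of the rest, 33 of the 49 regions were called in more phalanx than metapodial lists (67.3%, against 38.1% of the regions missing from at least 1 list in the series), and 13 in more metapodial lists (26.5%, against 51.0%). Of the 49, 8 were called in 3 or more phalanx lists and in no metapodial list (16.3%, against 3.59% in the series), 6 of them around Msx1 and 2 around Dlx3 and Dlx4. The opposite pattern occurred once (2.04%, against 4.45%). Of the 33 regions called in all lists, 5 were wider in the phalanges and none narrower by the exact permutation test, beside 3.4% wider and 2.93% narrower among 23353 such regions in the series. Those were the region over Msx1, those 65.2 kb upstream and 63.5 kb downstream of it, the Ror2 region and the region over Dlx3. The total length covered near the 6 genes was 195.3 ± 23.3 kb in the phalanges and 140.2 ± 35.2 kb in the metapodials (difference 55.1 kb, exact permutation p = 0.0625).

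Markers of other tissues were read in the same way, as regions called in all lists within 1 kb of a gene end. Such a region was present for 8 of 10 chondrocyte markers (all but Col9a1 and Matn1), for 6 of 9 markers of epidermis, a tissue in which Msx2 and Dlx3 are also active, and for 6 of 8 of perichondrium and osteoblasts. It was present for 5 of 7 endothelial markers, 2 of 7 of skeletal muscle and 2 of 5 of nerve. Krt5, Krt14 and Trp63 of the epidermal list had none, and no marker window was empty. Regions called in the epidermal windows summed to 99 to 115 per phalanx list and 87 to 112 per metapodial list, and those in the perichondrial windows to 103 to 132 per phalanx list and 97 to 127 per metapodial list. The epidermal sums averaged 107.0 per phalanx list and 101.0 per metapodial list, and the perichondrial sums 114.8 and 111.8. None of these epidermal or perichondrial markers passed the exact permutation test. Tfap2a, Grhl3 and Ovol1 of the epidermal list came nearest, higher in the phalanges by 2.17, 3.0 and 1.5 regions (exact permutation p = 0.0625 each). Krt14, Trp63 and Esrp1 of that list were lower in the phalanges. Of the other lists, Matn1 of cartilage had 14.5 regions in the phalanges and 11.5 in the metapodials, Col11a1 of cartilage 4.5 in the phalanges and 6.17 in the metapodials, and Des of muscle 29.83 in the phalanges and 28.0 in the metapodials (exact permutation p = 0.0312 each). Over all gene windows the same test called 2.41% higher in the phalanges and 2.41% lower. The chondrocyte windows summed to 147 to 201 regions per phalanx list (mean 165.8) and 143 to 219 per metapodial list (mean 180.8). Matn1 was the only chondrocyte marker with a higher mean in the phalanges. Sox6 was equal and the others were lower, with differences of -4.0 for Acan and -1.17 for Comp (exact permutation p = 0.0625 each). The part of these markers in the Msx and Dlx differences was not tested.

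The second comparison set the 4 lists of digit I against the 8 of digits III and V. With all peaks none of the 6 windows passed. Msx2 came nearest, with 12, 15, 13 and 8 regions in digit I of foot phalanges, hand phalanges, metatarsal and metacarpal, against 7, 10 and 12 (lowest, median and highest) in digits III and V, and the groups overlapped. The difference was 2.12 regions (12 ± 2.94 in digit I, n = 4 lists, 9.88 ± 1.81 in digits III and V, n = 8 lists; exact permutation p = 0.0741 over 81 labellings). For Msx1 the mean was 14 ± 2.83 in digit I and 13.25 ± 3.06 in digits III and V (exact permutation p = 0.63), and for Dlx5 the difference was -0.25 (exact permutation p = 0.901). Of all windows 1.71% were called higher in digit I and 0.802% lower.

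With lists of equal length Msx2 was higher in digit I, by 2.25 regions (10.5 ± 2.38 against 8.25 ± 2.05 in digits III and V), in 4 of 4 combinations of limb and element. The exact permutation p was 0.0123, the smallest possible, and the adjusted p was 0.45. At that length 7.78% of all windows were called higher in digit I. Differences of 1.25 regions for Msx1 and 2.88 for Dlx3 did not pass (exact permutation p = 0.0741 for both). At equal length 2 regions near the 6 genes passed the digit test, as 0.422% of all regions did. One, 57.4 kb upstream of Msx2 (chr13:53530144-53534230), was covered over 3.41, 4.09 and 2.26 kb in digit I of foot phalanges, hand phalanges and metacarpal and called in no other list (exact permutation p = 0.037, adjusted p = 1.0). The other, over Itga3 and 61.8 kb from Dlx3 (chr11:95056225-95058360), was called in all 4 lists of digit I and in metatarsal V (exact permutation p = 0.0247, adjusted p = 1.0). With all peaks no region near the 6 genes passed the digit test. The region upstream of Msx2 was then also called in metatarsal I, foot phalanges III and metacarpal III (2.38, 3.63 and 1.44 kb). Its exact permutation p was 0.0988. The region over Itga3 was then also called in foot phalanges V and metacarpal V, with an exact permutation p of 0.123. No region near the 6 genes was called in all lists of digit I and in none of digits III and V, a pattern of 0.0061% of regions in the series.

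Between hindlimb and forelimb lists none of the 6 windows passed the test when all peaks were used. The largest difference was 1.5 regions, at Dlx3 (22.33 ± 2.34 in the hindlimb, 20.83 ± 1.6 in the forelimb, n = 6 lists each, exact permutation p = 0.125). Of all windows 1.45% were called higher in the hindlimb. With lists of equal length the Dlx3 and Dlx4 windows were higher in the hindlimb by 2.83 regions (exact permutation p = 0.0312, adjusted p = 0.733), where 1.64% of windows were. None of the 82 regions marked the hindlimb by presence in its 6 lists and absence from the forelimb, as 0.0763% of regions in the series did.

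The other Msx and Dlx genes and genes of the BMP pathway and of limb patterning formed a list of 27, and their windows were counted in the same way. In the phalanges, 3 of the 27 were higher than in the metapodials, none was lower and 24 did not pass (over all windows 2.41% were higher and 2.41% lower), with a median difference of 1.17 regions beside 0.0 over all windows. Lmx1b, which sets dorsal limb identity and is needed for nails, had 24.0 ± 2.45 regions in the phalanges and 19.0 ± 4.34 in the metapodials. Fgf8, a ligand of the apical ridge, had 12.5 ± 1.38 in the phalanges and 10.67 ± 1.37 in the metapodials. Both had an exact permutation p of 0.0312. The family members Msx3, Dlx1 and Dlx2 had differences of 2.17, 1.33 and 1.33 regions and did not pass (exact permutation p = 0.0625, 0.438 and 0.375). Of the BMP ligands, Bmp2 had a difference of -3.5 (exact permutation p = 0.0625), Bmp4 -0.83 and Bmp7 1.5. With lists of equal length Lmx1b and Prrx1 were among the windows that were higher, and Bmp2 was lower, by 2.83 regions (exact permutation p = 0.0312), beside 5.58% of all windows higher and 3.47% lower. Fgf8 then had a difference of 1.67 regions and did not pass (exact permutation p = 0.125). With all peaks, 2 of the 27 were higher in digit I than in digits III and V (1.71% of all windows), Lmx1b by 4.5 regions and Sp7, the osteoblast factor, by 2.75 (exact permutation p = 0.0247 and 0.0123). For the limb none of the 27 passed with all peaks, and at equal length 1 was higher in the hindlimb, Lmx1b by 3.0 regions (exact permutation p = 0.0312).

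Scaled to 10000 called regions per list, the counts in the 12 lists were most like those of Msx1 at Kctd15, Fam178b and 4933424G06Rik (Pearson r = 0.97 each over 12 lists, of 18445 genes compared). Those nearest to Msx2 were Ptpdc1 (r = 0.96), Mfap4 and Mapk7 (r = 0.94), and those nearest to Dlx5 were Wdfy3, R3hcc1l (r = 0.89) and Tnks (r = 0.86). For Dlx3 they were Mpp2, Cd300lg and Pyy (r = 0.98), which lie on the same chromosome. The points share their lists and therefore list length and threshold, and the values are given as a description only.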

How the data were processed

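Per the labels' protocols, limbs of 3 to 5 embryos were dissected and pooled for each of 36 ATAC-seq libraries, each aimed at 40 M reads or more. The build mm10 and the tools MACS3, Picard 2.9.0 and Bowtie2 2.3.4.1 stand in the submitters' processing notes, with no role or setting. How reads were trimmed, filtered or shifted was not given in the sources used here. The authors deposited 12 peak lists that give each peak's summit offset, −log10 p-value, score and linear fold enrichment, all from the peak caller and used only to describe or rank peaks inside 1 list. No counts per library were used, so depth and replicate spread are unknown. The permutation p-values rest on differences between lists that share the other factors, and they measure no replicate spread.

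Peaks that shared at least 1 bp were merged, and again for lists of equal length (Python 3.11.15, numpy 2.4.6, pandas 2.3.3). Called regions per gene window of 200 kb were compared by two-sided exact permutation tests, with labels swapped within strata of the other factors (64 labellings for element and limb, 81 for digit). Values were adjusted by Benjamini-Hochberg over all 20711 protein-coding windows (20597 at equal length), all 65543 regions or, for covered length, the 23353 regions called in all lists. A window was called at an unadjusted p under 0.05. The procedure was tested on simulated window counts, drawn independently and scaled to list size. They held no thresholds that differ between lists and no regions shared by neighbouring windows. Gene positions came from RefSeq for GRCm38.p6. Genes over or nearest to a region were sought among protein-coding genes only.

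Named were the 6 genes, regions over them, regions that separated groups or passed the test, and a family and partner list of 27 genes. Results for some genes of that list are not reported here. The genes, lists, markers and tests were chosen with earlier results of these data known. Upstream and downstream counts, single regions that did not pass and region assignment by nearest gene were added after the values were seen. Alternatives were list length (by first lines and by significance, which kept the same peaks), the more significant 50%, a cover of 50%, 500 bp summit windows, flanks of 100 and 50 kb, scaling to 10000 called regions, unmerged peaks, nearest-gene assignment and leaving out each list.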

Additional observations from a re-analysis of the deposited data

How the results depend on the processing

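Values are differences in called regions unless stated, and the cause of each change was not tested. Around Msx1, phalanges minus metapodials was -0.6667 in the more significant 50% of each list, 4.833 with 50% cover, 1.833 at 100 kb and by nearest gene and 1.333 at 50 kb, none passing the test, and it passed in the other 5 alternatives. Those 5 include equal length by first lines and by significance, which kept the same peaks. Around Dlx3 the same difference lost the call in 7 of 10 alternatives, with 2.167 (more significant 50%, and 100 kb), 5 (50% cover), 4.167 (summit windows, and unmerged peaks), 0 (50 kb) and 0.6667 (nearest gene). Dlx4 gave 2.167, 5, 3.833, 0.8333 and 0.3333 in the same order. Msx2 passed at equal length (3.667) and per 10000 regions (0.842). Per 10000 regions, 9.2% of all windows were called higher in the phalanges and 7% higher in digit I. Unscaled, these shares were 2.41% and 1.71%. For digit I against III and V, Msx2 passed at equal length (2.25), with summit windows and unmerged peaks (2.875), at 100 kb (2) and per 10000 (0.6778), and Msx1 passed per 10000 (0.3855). Without passing, that difference changed sign for Dlx5 at equal length (0.75), in the more significant 50% (0.625), per 10000 (0.06119) and by nearest gene (0.25), for Dlx6 at equal length (0.75), in the more significant 50% (0.625), at 50 kb (0.375) and per 10000 (0.03332), and for Dlx4 by nearest gene (-0.25). For hindlimb against forelimb, Dlx3 and Dlx4 passed at equal length (2.833). Signs changed for Msx1 in the more significant 50% (-0.3333), for Msx2 at 100 kb, 50 kb and by nearest gene (-0.1667), and for Dlx5 with summit windows and unmerged peaks (-0.3333) and per 10000 (-0.000577). Regions separating phalanges from metapodials numbered 0 at equal length, in the more significant 50% and with 50% cover.

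Leaving out each list gave 4.233 to 5.233 for Msx1, phalanges minus metapodials, with no test, since 5 pairs cannot reach 0.05. For digit I it gave -1.0 to 0.3333 for Dlx5, where leaving out metacarpal I or III changed the sign, and -1.292 to 0.375 for Dlx6, where foot phalanges I or the same metacarpals did. Separating regions numbered 1 to 2, the second appearing without foot phalanges I or III, hand phalanges I or V, or metatarsal I. By replicate number, no paired analysis was possible because each list pools its 3 replicates, so replicate numbers pair nothing. The element and limb tests instead paired lists, of the same limb and digit or of the same element and digit. The digit test compared lists within the same limb and element. Depth per library is unknown, so absence from a list is no measure of closed chromatin.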

Other observations

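The metapodial lists shared a stretch of 219 bp, downstream of Msx1 near Cytl1 (chr5:37731666-37731884), that no phalanx list covered, although the region around it was called in 4 phalanx lists. Conversely, phalanx lists shared 256 bp inside the widened region 65.2 kb upstream of Msx1 (chr5:37896994-37897249) that no metapodial list covered. Of the 91630 bp called around Msx1, 1057 bp were covered in every phalanx list and in no metapodial list (1.15%, against 0.0806% over the series). Of these 1057 bp, 693 bp belong to the region 32.4 kb upstream described above. The opposite pattern held for the 219 bp near Cytl1 (0.239%, against 0.0481% over the series). Around Dlx3 and Dlx4 and around Dlx5 and Dlx6 there were 0 such bases.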
